A study of Homo sapiens with 2 samples.

Results

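The genes described are B2M and the members of the major histocompatibility complex (MHC) class I pathway HLA-B, HLA-C, HLA-E, TAP1, TAP2, TAPBP, NLRC5 and IRF1, 9 of the 33538 genes in the count table. They were chosen by name, and the rule used no measured value, but earlier results of these data were known at that time. Of the 9 members, 7 had at least 1 unique molecular identifier (UMI, the tag of a single captured mRNA molecule) in the cells kept, and 2 of them, B2M and TAPBP, were found in 10% or more of each flask's cells. HLA-B and TAP1 had none. Of all 33538 genes, 17881 had a UMI in the cells kept and 46.7% had none. Of the same genes, 5191 were found in 10% or more of each flask's cells.

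Human SH-SY5Y is an established neuroblastoma cell line, here obtained from ATCC. A culture was divided between 2 flasks, called SplitA and SplitB, and the cells were left untreated until harvest. The cells of each flask were marked with an antibody carrying their own hashtag oligonucleotide, pooled, and sequenced from the 3' end of the transcripts in a single mRNA library with a matched hashtag library. The 2 flasks share the condition, the parent culture and the library, so their spread is that of replicate flasks and no comparison of conditions exists.

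MHC class I molecules show fragments of the cell's own proteins to cytotoxic T cells. The proteasome cuts proteins into peptides, the TAP1-TAP2 transporter carries the peptides into the endoplasmic reticulum, and tapasin (TAPBP) holds an empty heavy chain paired with beta-2-microglobulin (B2M) beside the transporter until a peptide is bound. NLRC5 and IRF1 are activators of these genes, and interferons raise their levels in most cell types. Neuroblastoma is known for low surface class I, and B2M is also used in many laboratories as a reference gene for qPCR.

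The hashtag counts placed 1179 of 2879 cells in SplitA and 1605 in SplitB, and the other 95 were multiplets. Cells with at least 1000 genes were kept, 899 of SplitA and 1195 of SplitB, with 5852780 and 8066440 gene UMIs and medians of 6063 and 6346 UMIs per cell. Levels are given as CPM, the UMIs of a gene per 1000000 UMIs of the flask, and since a transcript is tagged at its 3' end, CPM values of different genes were compared without division by length. Intervals are exact 95% intervals, Poisson for CPM and binomial (Clopper-Pearson) for shares of cells, and they cover counting error only. Overlap of intervals is given as a description and does not show that levels are equal. For a count of 0 the limit given is the level of 3 counts, in place of the interval, except where the interval is named. With 1 flask against 1 flask no test was possible, cells of a flask were not taken as replicates, and no p-value is given. Of the 10 adrenergic genes that mark this line, 9 were at 10 CPM or more, led by PHOX2A at 684.8 CPM in SplitA and 665.3 CPM in SplitB, while TH was at 1.54 and 1.12 CPM. Of the 6 leukocyte markers examined, PTPRC, CD3E, LYZ and TYROBP had no UMI, CD79A had 4 and CD14 had 6. Of 7 fibroblast and endothelial markers 4 had no UMI. PDGFRA of that list was at 12.6 and 14.8 CPM, COL3A1 at 4.10 and 5.58 CPM and COL1A1 at 1.71 and 1.74 CPM. Of all 33538 genes, 46.7% had no UMI and 21.5% were at 10 CPM or more.

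The sequences just upstream of 4 members are shown because they span the range of the measured levels, from B2M, the highest member, through HLA-C, to HLA-B and TAP1, which had no UMI. Each line gives the 250 bases before the RefSeq start of the gene in GRCh38.p14, read 5' to 3' on the strand of the gene, and capitals mark matches to the motifs searched. The windows are chr15:44711267-44711516 (plus strand) for B2M, chr6:31272093-31272342 (minus strand) for HLA-C, chr6:31357180-31357429 (minus strand) for HLA-B and chr6:32853705-32853954 (minus strand) for TAP1.
B2M: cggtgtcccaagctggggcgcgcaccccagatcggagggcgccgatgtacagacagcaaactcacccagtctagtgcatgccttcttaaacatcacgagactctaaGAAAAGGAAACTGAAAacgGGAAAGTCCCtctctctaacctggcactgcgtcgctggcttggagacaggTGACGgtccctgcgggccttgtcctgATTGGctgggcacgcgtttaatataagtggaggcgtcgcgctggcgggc
HLA-C: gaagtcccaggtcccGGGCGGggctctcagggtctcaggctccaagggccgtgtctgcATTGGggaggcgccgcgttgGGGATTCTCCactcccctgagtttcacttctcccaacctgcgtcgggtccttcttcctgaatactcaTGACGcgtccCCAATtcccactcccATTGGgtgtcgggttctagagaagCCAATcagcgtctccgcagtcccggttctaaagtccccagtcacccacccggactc
HLA-B: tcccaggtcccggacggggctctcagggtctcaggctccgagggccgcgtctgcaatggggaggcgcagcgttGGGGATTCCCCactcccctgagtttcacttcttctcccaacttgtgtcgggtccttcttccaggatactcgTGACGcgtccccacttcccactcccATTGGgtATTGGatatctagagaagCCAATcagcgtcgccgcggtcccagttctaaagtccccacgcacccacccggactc
TAP1: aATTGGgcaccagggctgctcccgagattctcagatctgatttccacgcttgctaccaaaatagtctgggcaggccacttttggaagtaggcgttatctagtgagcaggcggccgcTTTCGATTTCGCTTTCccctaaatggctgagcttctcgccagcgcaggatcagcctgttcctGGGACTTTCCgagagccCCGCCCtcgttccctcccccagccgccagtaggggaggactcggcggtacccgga
The motifs, searched on both strands, were the interferon response element core (GAAA, any 2 bases, GAAA), the CCAAT box bound by NF-Y, the cyclic AMP response element core TGACG, the GC box GGGCGG and the kappaB consensus. RefSeq entries were found for 7 of the 9 members, and HLA-E and NLRC5 are only named here. In the first TAP1 window and in the B2M window the interferon core matched at 2 positions that overlap by 4 bases, whereas it matched nowhere in the windows of HLA-B and HLA-C. TAP2 held 1 such match and TAPBP 2. Of 35116 RefSeq promoter windows of the same length, 3.02% held this core, 32.0% a CCAAT box, 21.2% TGACG, 42.6% a GC box and 9.96% the kappaB consensus. HLA-B and HLA-C were alike in layout, with a kappaB match 177 and 172 bases before the start, TGACG at 106 and 105 bases and the nearest CCAAT at 56 bases in both. A match describes letters only and shows no bound factor. Only these patterns were searched, so a window without a match may still hold a variant of the motif.

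B2M was the only member at a high level. It held 1539 UMIs in SplitA, 263 CPM (250 to 276.4), and 2042 in SplitB, 253.1 CPM (242.3 to 264.4), and the mean of the flasks was 258 CPM ± 6.93 (SD, n = 2). It ranked 397 among the 17881 genes with a UMI, so that 2.21% of them were higher. Its gene lies on chromosome 15 from 44711358 to 44718851 (plus strand, GENCODE 44, GRCh38). The log2 ratio of SplitA to SplitB was 0.05 (-0.04 to 0.15), and only 3 of 5191 genes (0.0578%) stood at least 1.5-fold apart between the flasks.

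**Figure D1:**
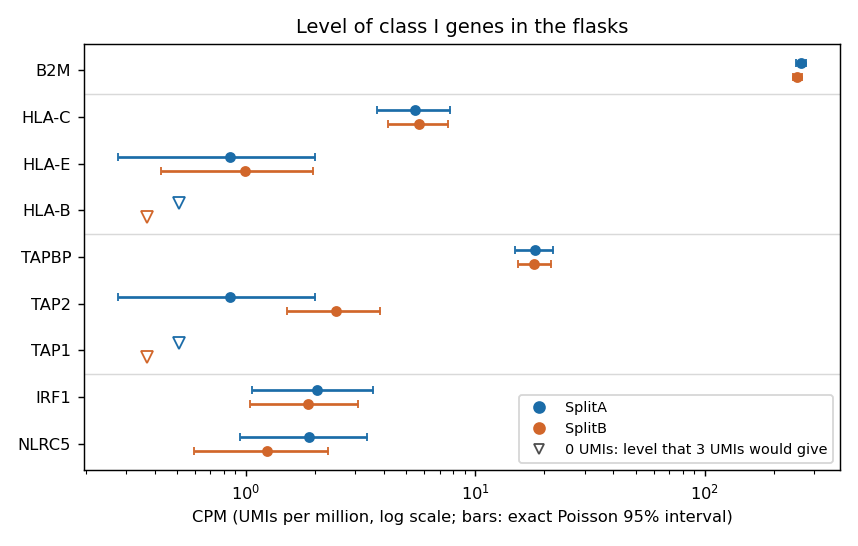
Levels of the 9 members in CPM on a log axis, for SplitA (blue) and SplitB (orange). Points are CPM, bars exact Poisson 95% intervals, and open triangles mark the level that 3 UMIs would give for the genes with no UMI. B2M stands alone at the right and 5 of the members lie below 6 CPM in both flasks with overlapping intervals between the flasks, while HLA-B and TAP1 have triangles only.

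The classical heavy chains pair with B2M and hold the peptide. HLA-C, on chromosome 6 from 31268749 to 31272130 (minus strand), had 32 UMIs in SplitA and 46 in SplitB, 5.47 CPM (3.74 to 7.72) and 5.70 CPM (4.18 to 7.61). HLA-E, a non-classical chain read by NK cell receptors, on chromosome 6 from 30489509 to 30494194 (plus strand), had 5 and 8 UMIs, 0.854 CPM (0.277 to 1.99) and 0.992 CPM (0.428 to 1.95). HLA-B, on chromosome 6 from 31353872 to 31367067 (minus strand), had 0 UMIs in both flasks and in all 2879 cells, and a count of 0 allows up to 0.513 CPM in SplitA and 0.372 CPM in SplitB. B2M thus held 45.9 UMIs (36.7 to 58.2) for each UMI of HLA-C.

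Added up, the UMIs of HLA-B, HLA-C and HLA-E came to 37 for SplitA and 54 for SplitB. B2M outnumbered them by 41.6 (30.0 to 59.3) and 37.8 (28.9 to 50.5). This ratio covers these 3 heavy chains and not all chains that pair with B2M. Of 8 further class I and class I-like genes listed, HLA-F, HLA-G, HFE, MICA, MICB and RAET1G had no UMI, MR1 had 2 and ULBP2 had 1. Of all 33538 genes, 46.7% had no UMI.

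Class I genes are alike in sequence, and counting could split reads between them. Over the last 400 bases of the longest GENCODE 44 coding transcript, HLA-B and HLA-C differed by as little as 1 base in a stretch of 91, and 55 of 310 HLA-B stretches lay within 3 mismatches of another of these genes, most often of HLA-C. No HLA-B stretch was identical to another of these genes, and the median difference from the closest was 8 bases. The reads reported by the paper were longer than these stretches. For HLA-E the closest stretch among HLA-B, HLA-C, HLA-F and HLA-G differed by 45 bases. Where reads fell in the close stretches of HLA-B and HLA-C, the split between them is uncertain. The 0 of HLA-B is that of the deposited counts. Reads were not examined, so a loss of reads that fit several genes, or through alleles unlike the reference, was not tested. The summed heavy chain count and the ratio of B2M to it carry this limit too, which their intervals do not cover.

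TAP1 and TAP2 form the peptide transporter. TAP1, on chromosome 6 from 32845209 to 32853816 (minus strand), had no UMI in either flask or in any of the 2879 cells, with the same limits as HLA-B. TAP2, on chromosome 6 from 32821833 to 32838739 (minus strand), had 5 UMIs in SplitA and 20 in SplitB, 0.854 CPM (0.277 to 1.99) and 2.48 CPM (1.51 to 3.83). The log2 ratio of the flasks was -1.54 (-3.31 to -0.08), the farthest from 0 among the members, and it rests on 25 UMIs in all. Tapasin was the second member by level. TAPBP, on chromosome 6 from 33299694 to 33314284 (minus strand), had 106 and 146 UMIs, 18.1 CPM in both flasks (14.8 to 21.9 and 15.3 to 21.3). Its homologue TAPBPL, an editor of the bound peptide, had no UMI.

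The activators were near the limit of what these libraries show. IRF1, a transcription factor induced by interferon gamma, on chromosome 5 from 132440440 to 132508719 (minus strand), had 12 and 15 UMIs, 2.05 CPM (1.06 to 3.58) and 1.86 CPM (1.04 to 3.07). NLRC5, the class I transactivator, on chromosome 16 from 56989485 to 57083531 (plus strand), had 11 and 10 UMIs, 1.88 CPM (0.938 to 3.36) and 1.24 CPM (0.595 to 2.28). CIITA, its class II counterpart, had 1 and 2 UMIs. In order of level the members ran B2M, TAPBP, HLA-C, IRF1, TAP2, NLRC5 and HLA-E, with HLA-B and TAP1 at 0. Over both flasks the ratios of neighbours were 2.89 (1.84 to 4.66) for HLA-C over IRF1, 1.08 (0.603 to 1.94) for IRF1 over TAP2, 1.19 (0.640 to 2.24) for TAP2 over NLRC5 and 1.62 (0.772 to 3.51) for NLRC5 over HLA-E, so each of the last 3 steps of this order was within counting error.

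Of the 9 members, 2 were at 10 CPM or more, while 21.5% of all 33538 genes were, and 46.7% of all genes had no UMI. The members below 1 CPM over both flasks were HLA-B, TAP1 and HLA-E. The median of the 9 members was 1.80 CPM, against 0.0718 CPM for all 33538 genes and 6.11 CPM for the 17881 genes with a UMI.

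The rest of the pathway was taken step by step. The proteasome subunits that every cell uses were high: PSMB5 was at 275.1 and 257.9 CPM, PSMB6 at 156.3 and 143.9 CPM and PSMB7 at 143.4 and 142.4 CPM. Of their interferon-inducible counterparts, PSMB9 had no UMI, PSMB8 had 1 UMI in each flask and PSMB10 was at 15.2 and 11.7 CPM. PSMB5 outnumbered PSMB8, the subunit that takes its place, by 3690 UMIs to 2. The PA28 activator subunits PSME1, at 79.8 and 78.6 CPM, and PSME2, at 57.6 and 57.4 CPM, were well above the catalytic immunoproteasome genes. PSMB9 and TAP1, known to share a promoter region, were both at 0.

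Of the 9 genes of peptide trimming and loading, 5 were at 10 CPM or more, against 21.5% of all 33538 genes. CALR, the chaperone calreticulin, was at 132.9 and 128.8 CPM, CANX, the chaperone calnexin, at 78.8 and 86.5 CPM, and SEC61A1, a translocon subunit, at 64.2 and 65.6 CPM. Of the aminopeptidases that trim peptides ERAP2 had 2 UMIs and ERAP1 25, while LNPEP, which acts in endosomes, was at 7.18 and 9.05 CPM. The 4 genes below 10 CPM were ERAP1, ERAP2, LNPEP and TAPBPL. TAPBP, counted with the members, acts in loading too, and at 18.1 CPM it was near UGGT1 of this list at 19.4 CPM over both flasks.

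Among factors that bind class I promoters, 6 of 11 were at 10 CPM or more and each had a UMI. RFXANK stood at 30.8 and 31.4 CPM, RELA at 26.7 and 27.0 CPM and CREB1 at 26.0 and 23.8 CPM, with RFXAP at 4.61 and 2.60 CPM and IRF2 at 3.59 and 4.22 CPM as the lowest. Of 9 genes of interferon receptors and JAK-STAT signalling 5 reached 10 CPM, with IFNGR2 at 44.3 and 40.9 CPM, JAK1 at 38.8 and 38.4 CPM and IFNGR1 at 12.3 and 10.5 CPM, against JAK2 at 1.03 and 0.992 CPM and IRF9 at 2.56 and 2.85 CPM. Of 18 interferon-stimulated genes only IFI6 reached 10 CPM (10.1 and 11.9 CPM), 6 had no UMI (IFITM1, IFITM3, MX1, GBP1, CXCL10 and IDO1), and the median was 0.395 CPM. Every receptor, kinase and promoter factor listed had a UMI. Of the 18 interferon-stimulated genes 11 were below 1 CPM, a share near the 61.6% of all 33538 genes. Of all genes, 46.7% had no UMI and 21.5% were at 10 CPM or more.

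Of the genes listed as repressors of class I, SUZ12 and EZH2 of the Polycomb complex 2 were at 39.1 and 36.9 CPM and at 30.2 and 25.9 CPM, EED at 7.52 and 7.07 CPM and MYCN at 1.54 and 2.60 CPM. Of 8 class II genes, 6 had no UMI, CIITA had 3 UMIs and HLA-DMA had 9, while 46.7% of all 33538 genes had no UMI.

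The share of cells with a UMI depends on depth, so each cell was thinned at random to 2000 UMIs, which left out 3 shallower cells. At this depth B2M was found in 38.5% of SplitA cells (35.3 to 41.8) and 38.1% of SplitB cells (35.4 to 41.0), against 73.5% and 73.8% at full depth. The share expected over all possible draws, computed after this draw was seen, was 39.8% and 39.5%, and a single draw varies by an SD of 1.26 and 1.10 percentage points. At the same depth TAPBP was found in 3.79% (2.64 to 5.25) and 2.60% (1.77 to 3.67), and HLA-C in 1.22% (0.613 to 2.18) and 1.68% (1.03 to 2.58). Expected over all draws, TAPBP was at 3.34% and 3.35% and HLA-C at 1.255% and 1.233%. The draws of both genes thus differed more between the flasks than the counts did. IRF1, TAP2, NLRC5 and HLA-E were each found in under 1% of the cells of either flask. HLA-B and TAP1 were found in 0 of 898 and 0 of 1193 cells, which allows a share of up to 0.334% and 0.251% of cells with a UMI at this depth and sets no limit on cells expressing them. All cells were of 1 line, and for want of cells without these genes the share that free RNA gives was not measured.

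B2M varied more between cells than most genes of its level did. At 2000 UMIs, 61.5% of SplitA and 61.9% of SplitB cells had no B2M UMI, 26.3% and 26.6% had 1, and up to 6 were found in a cell. Its variance was 1.42 and 1.36 times its mean, where 1 is the value of Poisson counting. Sparse genes lie near 1 whatever their variation, so B2M was set beside the genes whose mean was within 1.5-fold of its own, 315 in SplitA and 321 in SplitB. Its ratio was higher than for 94.0% and 93.8% of them, and their median was 1.08 in both flasks. PSMB5, with nearly the same level as B2M, had 0.995 and 1.02 times, lower than most genes of its level. At full depth a SplitA cell held 27 B2M UMIs, the most of any kept cell, and the most in SplitB was 13.

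**Figure D2:**
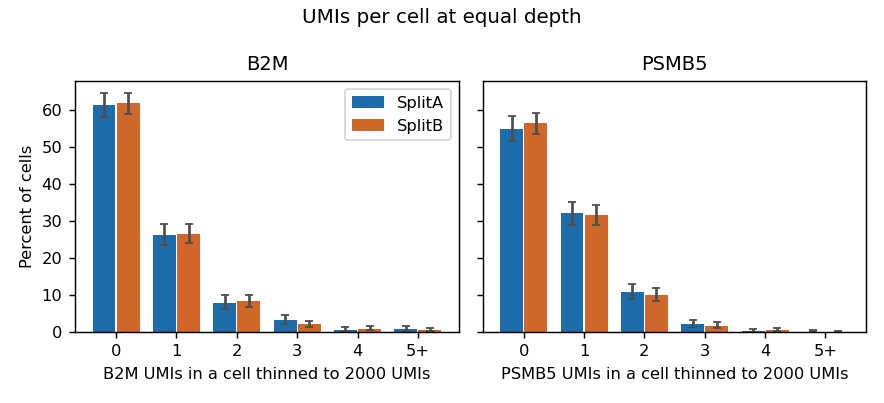
Percent of cells (y axis) with a given number of B2M (left) or PSMB5 (right) UMIs (x axis) after every cell was thinned to 2000 UMIs, for 898 SplitA and 1193 SplitB cells, with exact binomial 95% intervals. Cells without a UMI make up 61.5% and 61.9% for B2M and 55.0% and 56.5% for PSMB5, while cells with 5 or more UMIs are seen for B2M and not for PSMB5.

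B2M did not keep step with the size of the cells' libraries. Within each flask the cells were ordered by their UMI total and split into tertiles of equal number. B2M was at 404.7 CPM in the lower, 280.2 in the middle and 192.4 in the upper tertile of SplitA, and at 398.8, 276.7 and 178.7 CPM in SplitB. Counted per cell, it was at 1.60 UMIs in the lower and 1.81 in the upper tertile of SplitA and at 1.60 and 1.76 in SplitB, while the mean UMI total was 2.38 and 2.45 times higher. PSMB5 per cell was 1.81 and 1.90 times higher, and TAPBP 2.99 and 3.03 times. Of 5191 genes, 5.76% were at least 1.5-fold lower in CPM in the upper tertile of both flasks. HLA-C, at 10.1 against 3.89 CPM and 11.3 against 4.58 CPM in the lower and upper tertile, was lower too. CPM of B2M and of HLA-C can therefore be compared between groups of cells only beside their depth.

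Between cells with 15 to 30% of UMIs on the 13 mitochondrial genes (53 in SplitA and 60 in SplitB) and cells under 15% (829 and 1091), B2M was at 241.4 against 265.2 CPM and 283 against 253.1 CPM, with intervals that overlapped. In the 17 and 44 cells over 30% it was at 64.5 (13.3 to 188.4) and 205.1 CPM (134 to 300.5), and in SplitA the interval lies below that of cells under 15%. The median depth was 2724 and 2888 UMIs in cells with 15 to 30% and 6329 and 6579 in cells under 15%. Of the 5191 genes, 21.9% were at least 1.5-fold higher in both flasks in the cells with 15 to 30%, and B2M and TAPBP were not among them. HLA-C was at 24.1 CPM (6.58 to 61.8, 4 UMIs) in the cells with 15 to 30% against 4.79 CPM in SplitA and at 4.64 (1 UMI) against 5.18 CPM in SplitB, and over 30% it was at 21.5 (1 UMI) and 39.4 CPM (12.8 to 92.1, 5 UMIs). Over all cells the summed HLA-B, HLA-C and HLA-E had r of 0.09 and 0.05 with the mitochondrial share, of the opposite sign to B2M. The 785 cells left out for few genes or as multiplets held 8.23% (7.38 to 9.13) of all B2M UMIs, 10.6% of TAPBP, 21.2% (13.6 to 30.6) of HLA-C and 10.2% of the UMIs of all genes.

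Correlation between the members over cells was low. HLA-C, HLA-E and TAPBP were sparse, so a low value does not show that the members are expressed apart. Pearson's r over the cells of a flask was computed on LogNorm values, the natural log of 1 plus 10000 times the share of a cell's UMIs. Points of a flask share a library and sparse counts, and r is given as a description without a p-value. Between B2M and the summed HLA-B, HLA-C and HLA-E r was 0.05 over 899 cells of SplitA and 0.07 over 1195 cells of SplitB. B2M with TAPBP gave 0.05 and 0.01, and HLA-C with HLA-E gave 0.08 and 0.03. At 2000 UMIs HLA-C was found in 1.16% (0.316 to 2.93) of SplitA cells with B2M and 1.27% (0.511 to 2.60) of those without, and in 2.64% (1.37 to 4.56) and 1.08% (0.469 to 2.12) in SplitB. TAPBP was found in 4.05% (2.23 to 6.70) of SplitA cells with B2M and 3.62% (2.23 to 5.54) of those without, and in 2.42% (1.21 to 4.28) and 2.71% (1.66 to 4.15) in SplitB. These shares come from a single draw, in which HLA-C in SplitB was at 1.68% against 1.233% expected over all draws.

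Cell by cell the members of successive steps were rarely seen together at full depth. B2M was found in 73.7% of the cells, TAPBP in 11.3% and one of HLA-B, HLA-C and HLA-E in 3.7%. NLRC5 was found in 20 cells and IRF1 in 26. Genes this sparse give few joint cells whether or not they are expressed together, so the counts do not separate these cases. Of 2094 cells, 63 (3.01%, 2.32 to 3.83) had a UMI of B2M and of HLA-B, HLA-C or HLA-E. A further 1480 (70.7%) had B2M and none of these 3 heavy chains, 15 (0.716%) one of the 3 without B2M and 536 (25.6%) neither. With TAPBP added to B2M and a heavy chain of the 3, 9 cells remained, and with TAP2 added 1 cell did. NLRC5 or IRF1 was found in 46 cells (2.20%, 1.61 to 2.92) and both in none, which by the limit of 3 counts allows a share of up to 0.143%.

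Cells with an HLA-C UMI were few, 28 in SplitA and 42 in SplitB, with median depths of 5912 and 6478 UMIs against 6063 and 6346 in the rest. B2M was at 492.3 CPM (396.4 to 604.5) against 255.5 CPM (242.5 to 269) in SplitA and 302.4 CPM (248.1 to 365.2) against 250.9 CPM (239.8 to 262.3) in SplitB, where the intervals overlap. In the 10 cells of each flask with an NLRC5 UMI, B2M was at 165.9 CPM (96.6 to 265.6) and 153.2 CPM (70.0 to 290.8) and no HLA-C UMI was found. The exact intervals of HLA-C there reach up to 36.0 and 62.8 CPM, above its 5.57 and 5.74 CPM in cells without NLRC5. The cells with NLRC5 were thus too few to show a lack of HLA-C.

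Of 5189 genes, the members left out, that were found in 10% or more of each flask's cells, 83 (1.6%) had r of at least 0.1 with B2M in both flasks and 9 (0.173%) had r at or below -0.1. The highest were LGALS1, which codes for galectin-1, at 0.33 and 0.36, and MYL6, a myosin light chain, at 0.31 and 0.37. The histone H3.3 genes H3-3B (0.29 and 0.34) and H3-3A (0.24 and 0.25), the calmodulin gene CALM2 (0.23 and 0.26), the small heat shock gene HSPB1 (0.23 and 0.24), the ferritin gene FTH1 (0.23 and 0.25), RGS5 (0.19 and 0.25), TPM1 (0.18 and 0.21) and PTMS (0.19 and 0.18) followed. The lowest were RPS21, a ribosomal protein gene, at -0.25 and -0.26, the mitochondrial genes MT-ND1 (-0.25 and -0.17), MT-ND2 (-0.20 and -0.16) and MT-ND4 (-0.16 and -0.13), and HSPD1 (-0.12 and -0.13). Of the listed genes compared, 0 of 2 of the immunoproteasome and PA28, 0 of 5 of peptide loading, 0 of 6 promoter factors and 0 of 2 of interferon signalling were among the 83. The constitutive proteasome had 1 of 3 (PSMB6, 0.10 and 0.13), the adrenergic list 1 of 9 (PHOX2A, 0.15 and 0.13) and the mesenchymal list described further on 4 of 6.

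**Figure D3:**
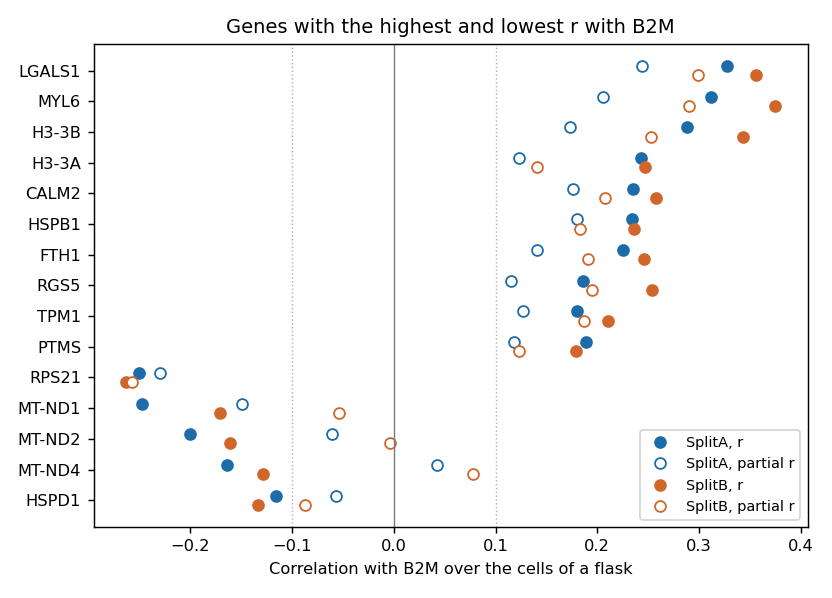
Correlation with B2M over the cells of each flask (x axis) for the 10 genes with the highest and the 5 with the lowest r (rows). Filled points are Pearson's r and open points partial r given the log10 UMI total and the mitochondrial share, and dotted lines mark 0.1 and -0.1. All 10 genes at the top stay above 0.1 as partial r in both flasks, whereas MT-ND2, MT-ND4 and HSPD1 move to between -0.1 and 0.1 in both.

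B2M itself had r of -0.12 and -0.13 with the log10 UMI total of the cell and -0.18 and -0.16 with its mitochondrial share. Partial r given both left 41 genes at 0.1 or more in both flasks, with LGALS1 at 0.24 and 0.30 and MYL6 at 0.21 and 0.29, and RPS21 stayed at -0.23 and -0.26. After thinning to 2000 UMIs 9 genes were at 0.1 or more, with MYL6 at 0.21 and 0.22. The 20 genes highest in SplitA had a median r of 0.19 there and 0.19 in SplitB, where the median of all genes compared was 0.01.

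The summed HLA-B, HLA-C and HLA-E, mostly HLA-C, had 12 genes (0.231%) at 0.1 or more in both flasks. TFPI2, a protease inhibitor, stood at 0.19 and 0.18, DLK1 at 0.15 and 0.17, S100A11 at 0.14 and 0.16 and VIM at 0.13 and 0.13. ITM2C, SLC35B2, S100A6, PARK7, CD63 and GNAS completed the 10 highest, between 0.10 and 0.17. These rest on 78 HLA-C and 13 HLA-E UMIs, and the 20 genes highest in SplitA, with a median r of 0.14 there, had a median of 0.07 in SplitB. After thinning to 2000 UMIs TFPI2 was at 0.16 and 0.10 and S100A11 at 0.12 and 0.12. DLK1 was then at 0.07 and 0.09 and VIM at -0.01 and 0.05, and the other genes named were below 0.1 in both flasks.

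For TAPBP, 1 gene of 5189 (0.0193%) reached r of 0.1 in both flasks.

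Along the cell cycle B2M was lower in G2M than in G1, with phases called by Seurat from published gene lists. In SplitA it was at 318 CPM (295.5 to 341.8) in 369 G1 cells, 235.3 CPM in 276 S cells and 219 CPM (198.2 to 241.3) in 254 G2M cells, and in SplitB at 278 CPM (260.5 to 296.4), 252.2 CPM and 219.8 CPM (201.6 to 239.2) in 505, 348 and 342 cells. The log2 ratios of G2M to G1 were -0.54 (-0.72 to -0.36) and -0.34 (-0.49 to -0.18), and 3.08% of genes were at least 1.5-fold lower in both flasks, which B2M was not. Median depth was 5830 and 6130 UMIs in G1 and 7078 and 6969 in G2M. Among cells of 5000 to 8000 UMIs and under 15% mitochondrial share, B2M was at 257 against 305 CPM and 256.8 against 296.3 CPM, with overlapping intervals in both flasks. HLA-C was at 2.69 CPM in G2M and 8.61 in G1 in SplitA, and at 3.68 and 8.89 CPM in SplitB, from 5, 20, 9 and 30 UMIs. Within the same limits of depth and mitochondrial share it was at 1.35 (0.034 to 7.54, 1 UMI) against 6.6 CPM (2.85 to 13) in SplitA. In SplitB HLA-C was there at 3.07 (0.633 to 8.97, 3 UMIs) against 6.37 CPM (3.06 to 11.7), and the intervals overlap in both flasks. Free RNA enters phase calls too, and its part in these differences was not tested.

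Cells were also ranked by a list of mesenchymal genes, which mark the less differentiated state of neuroblastoma cells. Of its 15 genes, 6 were found in at least 10% of cells (VIM, ANXA2, S100A6, S100A11, TIMP1 and LGALS1), and their mean standardized LogNorm value split each flask into tertiles. The other genes of the list were below 10 CPM over both flasks, and PRRX1, ANXA1 and CCN2 among them had no UMI. The tertiles thus rank cells by these 6 genes, and a mesenchymal state of the cells was not shown. B2M was at 185.9 CPM (167.2 to 206.1) in the lower, 251.2 in the middle and 348 (322.7 to 374.7) in the upper tertile of SplitA, and at 194.2 (177.7 to 211.8), 238 and 320.6 CPM (300.3 to 342) in SplitB. The log2 ratios of upper to lower were 0.90 (0.72 to 1.09) and 0.72 (0.57 to 0.88), and B2M was among the 5.28% of genes at least 1.5-fold higher in both flasks. LGALS1, in the list, was also the gene with the highest lower r with B2M. Among cells of 5000 to 8000 UMIs and under 15% mitochondrial share the levels were 419.6 against 182.3 CPM and 370.4 against 224.3 CPM.

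HLA-C followed the same list. It had 3 UMIs (1.55 CPM, 0.319 to 4.52) in the lower and 21 (10.4 CPM, 6.44 to 15.9) in the upper tertile of SplitA, and 7 (2.66 CPM, 1.07 to 5.47) and 30 (10.4 CPM, 7.04 to 14.9) in SplitB. The median depth was 6550 and 5758 UMIs in the lower and upper tertile of SplitA and 6678 and 6142 in SplitB. Among cells of 5000 to 8000 UMIs and under 15% mitochondrial share HLA-C had 10 UMIs (12.2 CPM, 5.83 to 22.4) in the upper and 0 in the lower tertile of SplitA, and 8 (7.50 CPM, 3.24 to 14.8) and 2 (1.64 CPM, 0.198 to 5.91) in SplitB, where the intervals overlap. TAPBP was at 16.5 and 20.8 CPM, and at 11.4 and 28.2 CPM, with log2 ratios of 0.34 (-0.36 to 1.05) and 1.31 (0.69 to 1.96). The flasks thus gave the same direction for B2M, HLA-C and TAPBP, and for TAPBP the interval of SplitA includes 0. Not all members followed. In the upper against the lower tertile of SplitA and of SplitB, IRF1 had 3 against 4 and 2 against 9 UMIs. NLRC5 had 3 against 6 and 6 against 2 UMIs, and HLA-E 3 against 0 and 8 against 0. TAP2 had no UMI in these tertiles of SplitA, and 8 against 6 in SplitB.

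**Figure D4:**
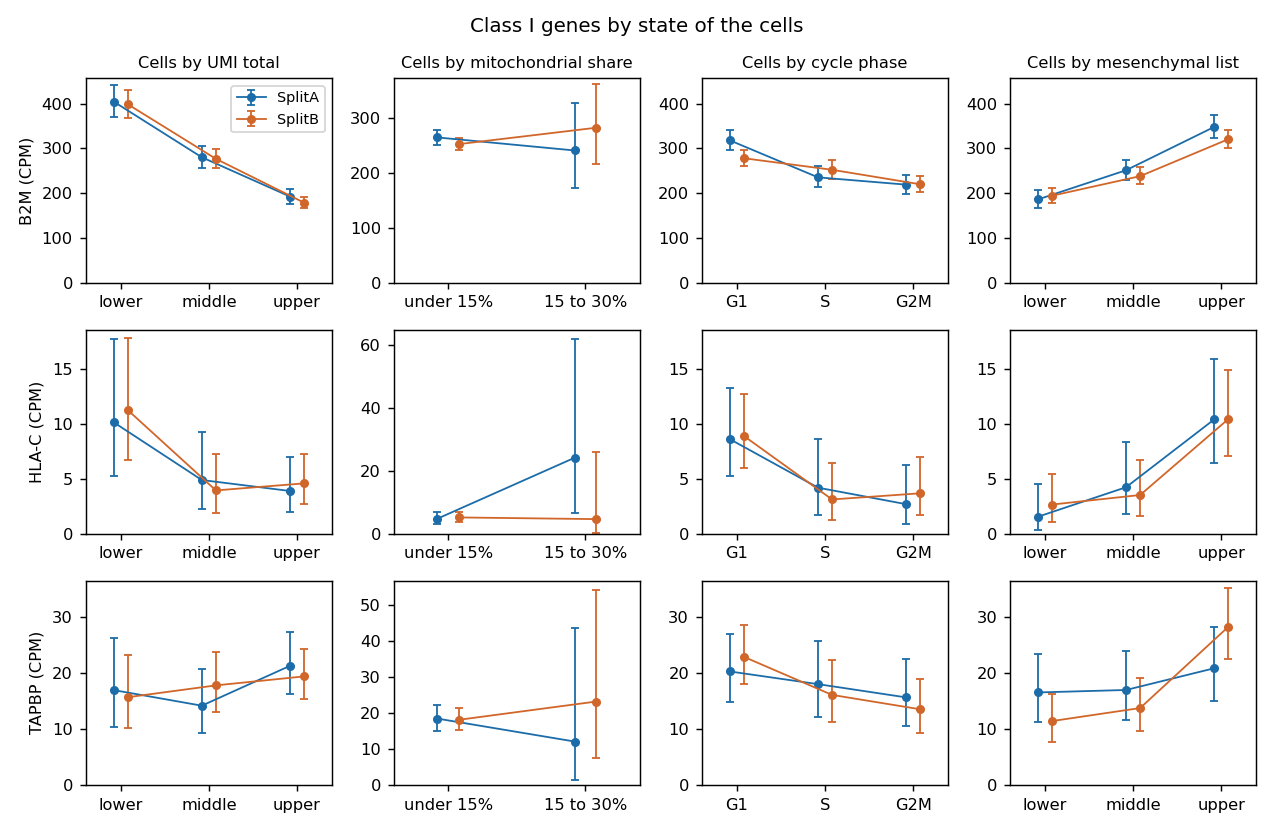
CPM (y axes) of B2M, HLA-C and TAPBP (rows) in groups of cells by UMI total, mitochondrial share, cycle phase and mesenchymal list (columns), for SplitA (blue) and SplitB (orange), with exact Poisson 95% intervals. In each row the columns for UMI total, phase and mesenchymal list have the same y scale, and the mitochondrial column has its own. B2M is lower with depth, its intervals overlap between cells under 15% and cells with 15 to 30% mitochondrial UMIs, and B2M and HLA-C are higher in the upper mesenchymal tertile.

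S100A11, a calcium-binding protein gene of that list, was found in 16.7% of the 2094 cells. It was taken after its r with HLA-C and HLA-E had been seen, so the levels by S100A11 describe the same cells again and the limits on depth and mitochondrial share were also set then. In cells with 2 or more of its UMIs (99 and 144 cells) HLA-C was at 15.3 CPM (8.15 to 26.2) and 14.3 CPM (8.62 to 22.3), against 3.62 CPM (2.11 to 5.79) and 3.69 CPM (2.34 to 5.53) in cells with none. TAPBP was at 29.4 against 16.2 CPM and 38.4 against 13.3 CPM. B2M was at 363.9 against 249 CPM in SplitA and 274.9 against 248.2 CPM in SplitB, where the intervals overlap, and the cells with S100A11 were deeper, with medians of 7443 and 7762 UMIs against 6002 and 6213. Among cells of 5000 to 8000 UMIs and under 15% mitochondrial share B2M was at 541.7 (457.9 to 636.3) against 248.2 CPM and 426 (361.8 to 498.4) against 256.4 CPM. HLA-C was there at 25.6 (10.3 to 52.8, 7 UMIs) against 1.26 CPM (0.260 to 3.69, 3 UMIs) in SplitA. In SplitB it was at 13.7 (4.43 to 31.9, 5 UMIs) against 2.65 CPM (1.14 to 5.22), with overlapping intervals. TAPBP was at 25.6 against 13.9 CPM and 35.5 against 14.6 CPM, with intervals that overlap in both flasks. Without these limits on depth and mitochondrial share, 4.7% of all genes compared were at least 1.5-fold higher in both flasks in the cells with S100A11. By that rule TAPBP was among them and B2M was not. The same split was also made by TFPI2 and by GAL. By TFPI2 the log2 ratios of HLA-C were 3.16 (1.89 to 4.38) and 2.24 (1.18 to 3.23). Within the limits on depth and mitochondrial share HLA-C was then at 47.1 (5 UMIs) against 1.63 CPM in SplitA. In SplitB it was at 6.43 (0.163 to 35.9, 1 UMI) against 4.16 CPM. By GAL the log2 ratios of HLA-C were 0.51 (-1.20 to 2.88) and 1.02 (-0.63 to 3.36).

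By the 9 adrenergic genes found in at least 10% of cells, B2M was close in the upper and lower tertiles, at 262 against 295.8 CPM and 263.5 against 258.3 CPM. Its log2 ratios were -0.18 (-0.35 to -0.0008) in SplitA and 0.03 (-0.12 to 0.18) in SplitB. The median depth was 6403 against 5891 UMIs in SplitA and 6339 against 6183 in SplitB. TAPBP was at 22.8 against 13.3 CPM and 25.0 against 12.7 CPM, with log2 ratios of 0.77 (0.04 to 1.55) and 0.98 (0.36 to 1.63), and 2.02% of genes were at least 1.5-fold higher in both flasks. HLA-C was at 6.64 against 5.00 CPM and 10.1 against 2.38 CPM, with log2 ratios of 0.41 (-0.90 to 1.80) and 2.08 (0.79 to 3.64). TAPBP and HLA-C were thus higher at the upper end of both lists in both flasks, with intervals that include 0 in SplitA for HLA-C by the adrenergic list and for TAPBP by the mesenchymal list.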

How the data were processed

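Untreated SH-SY5Y cells of 2 flasks were profiled by CITE-seq with 10x Genomics 3' chemistry. The deposited values are UMI counts per Ensembl gene and hashtag in 2879 cells, made by the authors with Cell Ranger 4.0.0 (STAR 2.7, per the labels) on GRCh38 without normalization. The annotation version is not given in the sources used here.

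A cell belonged to a flask if its hashtag had at least 3 times the counts of the other and the other at most 185, as in the code of the study. Labels describe both hashtags as the same split, so the names SplitA (replicate 1) and SplitB (replicate 2) follow the study. Cells with at least 1000 genes were kept with no limit on mitochondrial share, hashtag multiplets were removed, and no doublet caller was run. Gene symbols and positions were matched by Ensembl identifier (GENCODE 44), and RefSeq promoters by symbol. Values were computed in Python 3.11.15 with numpy 2.4.6, scipy 1.17.1 and pandas 2.3.3, and cycle phases in R 4.3.3 with Seurat 5.3.0. Correlation and ratio steps were tested on counts simulated from SplitA, with known effects planted only in genes well above TAPBP in level. The sparse members were thus not covered. Thinning was checked on SplitA cells for the fixed total.

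Members and lists were chosen with earlier results of these data known. Named genes were the members, the 10 genes highest in the lower r of the flasks for B2M and for the summed heavy chains, the 5 lowest for B2M, and the 3 highest and 2 lowest of each list by CPM. Some listed genes are not reported here. Alternatives concerned hashtag limits, filters, depth, normalization, correlation measure and leaving out each flask.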

Additional observations from a re-analysis of the deposited data

How the results depend on the processing

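Of 66 values recomputed under 15 other settings, 41 moved by less than the SD of the 2 flasks (or 1.5 times for a count of genes). Only the values of r and the log2 ratios among them can change sign, and none of these did. No paired analysis was possible because no groups of samples were compared. The level of B2M was 257.3 CPM over both flasks and 283.8 CPM outside the mitochondrial genes. The heavy chains HLA-B, HLA-C and HLA-E were at 6.54 CPM together, at 7.21 CPM outside the mitochondrial genes, 7.46 CPM with a minimum of 300 genes and 5.99 CPM under 15% mitochondrial share. The share of cells with B2M was 38.3%, against 24.6% at 1000 UMIs, 61.0% at 4000 UMIs, 41.0% with another seed, 39.8% with a hashtag limit of 100 and also with a ratio of 5, 37.6% with a minimum of 300 genes, 40.2% under 15% mitochondrial share and 42.0% with multiplets added. The share expected over all draws, added after seeing the data, was 39.6%, and 1 draw varies around it by an SD of 0.83 percentage points. The share of cells with HLA-B, HLA-C or HLA-E was 1.63%, against 0.669% at 1000 UMIs, 2.30% at 4000 UMIs, 1.20% under 15% mitochondrial share and 1.41% expected over all draws. The 83 genes with r of at least 0.1 with B2M became 515 with a minimum of 300 genes, 41 with partial r and 9 after thinning. The r of B2M with the heavy chains, 0.05, was 0.0123 with a minimum of 300 genes, 0.0765 under 15% mitochondrial share, 0.0022 after thinning and 0.0659 as partial r. The log2 ratio of the heavy chains between mesenchymal tertiles, 2.54, was 1.63 with a minimum of 300 genes, 3.01 under 15% mitochondrial share and 1.89 with tertiles within each phase. The causes of these shifts were not tested.

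Without 1 flask or the other, B2M ranged from 253.1 to 263 CPM and the heavy chains from 6.32 to 6.69 CPM. The shares ranged from 38.1% to 38.5% and from 1.34% to 1.84%, the genes with r of at least 0.1, then required in 1 flask only, from 158 to 176, and r from 0.0514 to 0.0691. The log2 ratios ranged from -0.54 to -0.34 for G2M over G1, and between mesenchymal tertiles from 0.72 to 0.90 for B2M and from 2.31 to 2.94 for the heavy chains. Depth limits the sparse members: 3 UMIs over both flasks correspond to 0.215 CPM.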
